A study of Mus musculus with 2 samples.

Results

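CD4 T cells that carry mRNA for ST2, the receptor of interleukin-33, but none for Foxp3 were described in visceral adipose tissue (VAT). A cell was counted as ST2+ Foxp3- when it had at least 1 UMI (unique molecular identifier, 1 captured mRNA molecule) of Il1rl1, the gene of ST2, and 0 UMIs of Foxp3. It also had at least 1 UMI over Cd3e, Cd3d and Cd3g, at least 10 UMIs of the CD4 antibody and 15 of the TCR-beta antibody, under 5 UMIs over the macrophage genes C1qa, C1qb and C1qc, and 0 UMIs of the endothelial gene Cdh5. Of 25198 cells that passed the quality filters, 327 met the rule, 216 of them in NW and 111 in ABX. The cells were CD45+ cells, enriched with magnetic beads from VAT of wild-type C57BL/6 mice aged 15 weeks and kept specific pathogen-free. The NW mice drank normal water and the ABX mice received antibiotics. Gene mRNA and surface antibodies bound to the same cells were counted together on the BD Rhapsody platform. Each condition is 1 library, how many mice each library holds is not given in the sources used here, and library, condition and staining cannot be told apart. All intervals in the text are 95% intervals that cover counting error only, and no difference between libraries has a replicate check.

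Interleukin-33 is released by stromal and endothelial cells of barrier tissues and fat, and it acts on cells that carry ST2. In fat these include regulatory T (Treg) cells, which are set by the transcription factor Foxp3, and group 2 innate lymphoid cells (ILC2), which lack a T cell receptor. Conventional CD4 T cells of the T helper 2 kind can carry ST2 as well. They rest on the transcription factor GATA3, and with interleukin-33 they can release interleukin-5, interleukin-13 and GM-CSF without meeting their antigen. Il1rl1 lies on chromosome 1 (40429570 to 40465415, plus strand), Foxp3 on chromosome X (7573644 to 7595245, plus strand) and Gata3 on chromosome 2 (9857078 to 9890034, minus strand) of GRCm38. All counts are per whole gene, so the full ST2 receptor and its soluble form, which come from the same gene, were not separated.

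The 2 libraries were of like depth in these cells. The median was 3789 gene UMIs per cell in NW (921 to 16844) and 4043 in ABX (596 to 17729), and the cells summed to 955737 and 554218 UMIs. All cells that passed the filters had medians of 5092 and 3845.5 UMIs. The libraries share 196 cell indices after the filters, and no index was ST2+ Foxp3- in both.

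The identity given by the rule was read against markers that it did not use. Cd4 mRNA was found in 77.3% of the cells in NW and 75.7% in ABX, against 1.72% and 2.05% of ILC2-type cells. The CD4 antibody was used to choose the ST2+ Foxp3- cells and to leave CD4+ cells out of the ILC2-type cells. This contrast thus follows from the choice and does not bear on identity. Gata3 was found in 75.5% (69.2 to 81.0) and 69.4% (59.9 to 77.8), against 39.6% and 38.4% of the ST2- Foxp3- CD4 T cells with a low CD62L antibody count (under 15 UMIs). CD62L is the homing receptor of naive T cells, so these CD62L-low cells serve as the memory-like comparison. Cd4 mRNA was found in 77.5% and 79.3% of them. Gata3 mRNA was also found in 7.003% and 5.78% of C1q-high macrophage-type cells (at least 5 C1q UMIs), which are shown as a comparison with cells of another type and can hold doublets, at median depths of 6299 and 4559.5 UMIs. With each cell thinned to 1000 UMIs, the Gata3 shares were 43.9% and 40.1% in the ST2+ Foxp3- cells, 18.2% and 15.4% in the CD62L-low cells and 1.94% and 1.54% in the C1q-high cells. Gata3 does not set these cells apart from Treg cells, since it was found in 83.7% and 70.7% of ST2+ Foxp3+ cells, and 53 of 216 and 34 of 111 ST2+ Foxp3- cells had no Gata3 UMI at this depth.

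Surface antibodies gave an effector-memory pattern in both libraries. The median count of the CD44 antibody, a protein of experienced T cells, was 216.5 UMIs in NW and 194 in ABX, and that of CD62L was 3 in both. CD25, the interleukin-2 receptor alpha chain, had medians of 15 and 17 UMIs. In ST2+ Foxp3+ cells the CD25 medians were 39 and 27.5, in CD62L-low cells 8 and 8, and in ILC2-type cells 31 and 35. The ST2+ Foxp3- cells thus stood between the CD62L-low cells and the Treg cells in CD25 protein in both libraries. The TCR-beta antibody, which the rule used, had medians of 105 and 70 UMIs, against 36 and 35 in CD62L-low cells. CD69, an early activation and residency protein, had medians of 9 and 8 UMIs, close to the 8 and 7 of the CD62L-low cells.

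Il1rl1 counts, which chose the cells, were spread widely among them. The median was 6 UMIs per cell in NW (quartiles 3 and 10, highest 24) and 4 in ABX (1 and 7, highest 29). Only 1 Il1rl1 UMI was found in 30 cells in NW (13.9%) and in 38 in ABX (34.2%), and at least 10 UMIs in 58 (26.9%) and 20 (18.0%). At least 1 Il1rl1 UMI was also found in 18.0% of C1q-high cells in NW and 14.7% in ABX, and in 4.10% and 5.64% of B-type cells. How many of the cells with 1 UMI owe it to free RNA was not tested.

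Genes that the rule did not use followed the Il1rl1 count within the Foxp3- CD4 T cells. In NW, Gata3 was found in 36.5% of the 288 cells with no Il1rl1 UMI, in 46.7% of those with 1, in 73.7% with 2 to 4, in 74.6% with 5 to 9 and in 93.1% with 10 or more. The ABX shares of Gata3 in the same order were 34.2% of 365 cells, 44.7%, 65.2%, 86.7% and 95%. Il2ra, the gene of CD25, went from 7.99% to 26.7%, 63.2%, 81.7% and 89.7% in NW and from 9.04% to 26.3%, 65.2%, 86.7% and 95% in ABX. Both genes were found in a larger share of cells at each step of Il1rl1 in each library. The inhibitory receptor gene Klrg1 was found in 13.3% of cells with 1 Il1rl1 UMI and 55.2% with 10 or more in NW, and in 2.63% and 80.0% in ABX. Pparg, the lipid-sensing nuclear receptor gene of visceral fat Treg cells, went from 1.74% of cells with no Il1rl1 UMI to 46.6% with 10 or more in NW, and from 2.47% to 45.0% in ABX (Pparg was named after its values were seen). Ccl5, a chemokine gene of T helper 1 cells, was less frequent in the ST2+ cells with at least 2 Il1rl1 UMIs than in the ST2- cells, with no step-wise order among them. In NW it was found in 59.7% of cells with no Il1rl1 UMI, 30% with 1, 10.5% with 2 to 4, 11.3% with 5 to 9 and 17.2% with 10 or more. The ABX shares in the same order were 49.9%, 55.3%, 30.4%, 23.3% and 30%. Median depth ran from 3176 to 4588.5 UMIs over these bins in NW and from 3376 to 4745.5 in ABX, with the deepest cells at 10 or more Il1rl1 UMIs, and its part in the shares was not tested.

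**Figure D1:**
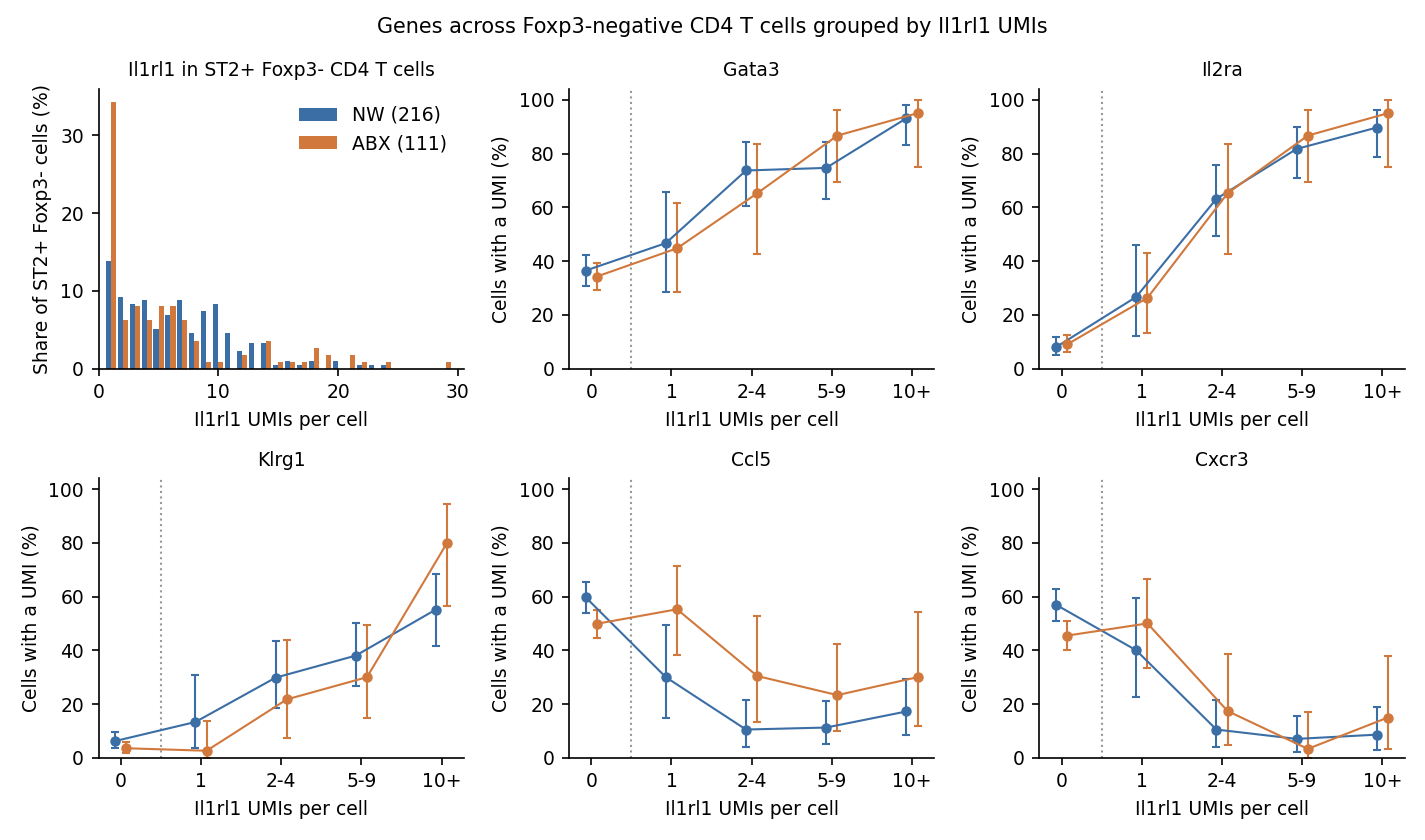
The share of ST2+ Foxp3- CD4 T cells (%) at each Il1rl1 count in NW (blue, 216 cells) and ABX (orange, 111 cells), and the share of Foxp3- CD4 T cells (%) with a UMI of 5 genes by Il1rl1 count, with exact 95% binomial intervals. The dotted line parts the cells with no Il1rl1 UMI from the ST2+ cells. Cells with 1 Il1rl1 UMI make up 13.9% in NW and 34.2% in ABX, and Gata3 and Il2ra are found in a larger share of cells at each further step.

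Cells with 1 Il1rl1 UMI had a median CD25 antibody count of 9 UMIs in NW and 8 in ABX, as against 9 and 8 in cells with no Il1rl1 UMI and 17 and 25 in cells with at least 2. The CD44 antibody did not have the same order in both libraries, with medians of 177, 166 and 220.5 UMIs in NW and 162, 235 and 191 in ABX for cells with 0, 1 and at least 2 Il1rl1 UMIs. Cells just outside the Foxp3 limit, with 1 Foxp3 UMI, had Ikzf2 mRNA, the gene of the Treg factor Helios, in 74.1% of 27 cells in NW and 55.6% of 9 in ABX. Inside the limit, with 0 Foxp3 UMIs, Ikzf2 was found in 14.4% and 15.3%. ST2+ Foxp3+ cells had a median of 5 Foxp3 UMIs in NW and 3 in ABX, and 11.6% and 15.5% of them had only 1. At the CD4 antibody limit, 6 cells in NW and 11 in ABX had 10 to 14 UMIs, and 10 and 13 cells just outside had 5 to 9. At the TCR-beta limit, 5 and 9 cells had 15 to 19 UMIs, and 6 and 7 just outside had 10 to 14.

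A small number of the ST2+ Foxp3- cells carried mRNA of at least 2 genes of a short picked set. Ikzf2, Ctla4, Tigit and Lrrc32 were taken from the Treg list and Il10 from the list of visceral fat Treg genes. Il10 was found in 3 cells in NW and 1 in ABX and Lrrc32 in 2 and 1, so the count depends on the genes picked. Other genes of the Treg list were found in many of the cells. Among them were Il2ra (71.3% in NW and 63.1% in ABX) and Tnfrsf18 (59.3% and 55.9%). At least 2 of the genes Ikzf2, Ctla4, Il10, Tigit and Lrrc32 were found in 23 cells in NW (10.6%) and 8 in ABX (7.21%). The same was true of 82.4% and 69.0% of ST2+ Foxp3+ cells and of 4.17% and 10.5% of CD62L-low cells. Ikzf2 mRNA was present in 31 cells in NW and 17 in ABX. Of these, 54.8% and 23.5% also had Ctla4, an inhibitory receptor gene of Treg cells, against 9.19% and 6.38% of the cells without Ikzf2.

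The ST2+ Foxp3- cells took a smaller share of the tissue in ABX. They were 1.73% (1.51 to 1.98) of all cells in NW and 0.872% (0.718 to 1.05) in ABX, a log2 ratio of -0.99 (-1.32 to -0.66). Among CD4 T cells, which were 6.19% and 4.48% of all cells, they were 216 of 772 or 27.98% (24.8 to 31.3) and 111 of 570 or 19.5% (16.3 to 23.0), a log2 ratio of -0.52 (-0.81 to -0.23). With at least 2 Il1rl1 UMIs asked for, the shares of CD4 T cells were 24.1% and 12.8%, and the log2 ratio was -0.91. ST2+ Foxp3+ cells differed more between the libraries, at 30.2% and 10.2% of CD4 T cells (-1.57, -1.95 to -1.18). Foxp3- cells therefore formed 48.1% (43.4 to 52.8) of the ST2+ CD4 T cells in NW and 65.7% (58.0 to 72.8) in ABX, a log2 ratio of 0.45 (0.24 to 0.66). CD62L-low cells were 31.1% and 41.6% of CD4 T cells but 1.92% and 1.86% of all cells. ILC2-type cells, which also carry Il1rl1, were 3.74% of all cells in NW and 6.51% in ABX (0.80, 0.64 to 0.96). Of the ST2+ lymphocyte groups compared, both kinds of CD4 T cell thus had lower shares of all cells in ABX and the ILC2-type cells a higher one.

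**Figure D2:**
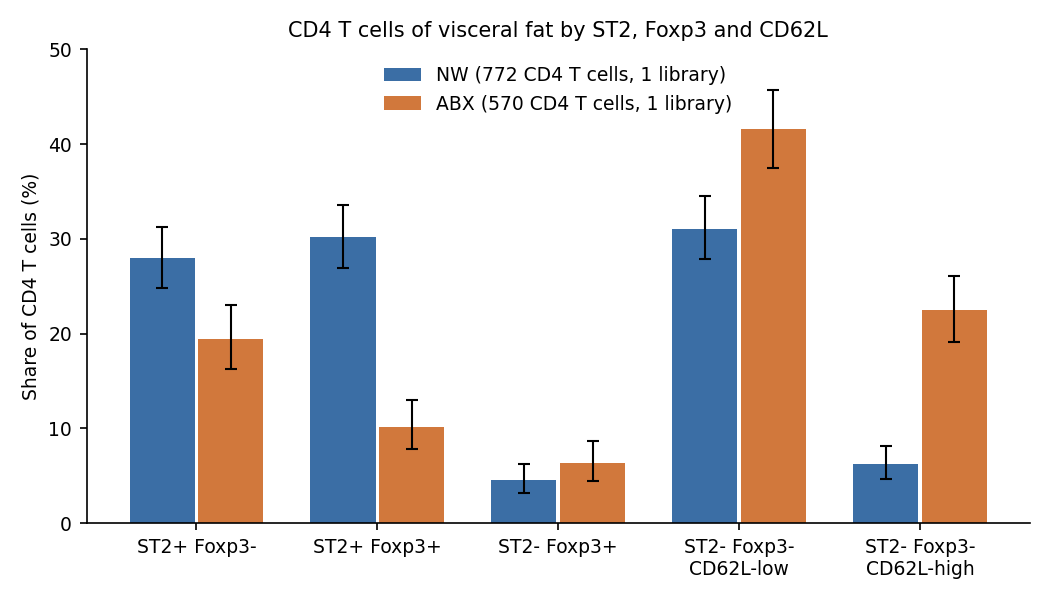
Share of CD4 T cells (%) taken by ST2+ Foxp3- cells and 4 other groups in NW (blue, 772 CD4 T cells) and ABX (orange, 570), 1 library each. Error bars are exact 95% binomial intervals. ST2+ Foxp3- cells are at 27.98% and 19.5%, and ST2+ Foxp3+ cells at 30.2% and 10.2%.

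Against all Foxp3+ CD4 T cells (268 in NW and 94 in ABX), the ST2+ Foxp3- cells carried less mRNA of the Treg genes Ikzf2, Ctla4 and Tigit and more of Pard3, Rnf128 and Csf1. Levels are given as CPM, the UMIs of a gene scaled to a fixed total after summing over the cells of a group in 1 library. A gene was counted as different when it was at least 2-fold higher or lower in both libraries, among genes with at least 50 UMIs over the compared groups in each. Of 3592 genes, 35 (0.974%) were higher and 39 (1.09%) lower in the ST2+ Foxp3- cells, and Foxp3, which the rule set to 0, is 1 of the 39. Of 11 Treg genes with enough UMIs, none was higher and 6 were lower. They are Foxp3 itself, Ikzf2, the inhibitory receptor genes Ctla4 and Tigit, the co-stimulatory receptor gene Tnfrsf4 (OX40) and Izumo1r (folate receptor 4), the last named after its values were seen. Without Foxp3, 5 of 10 were lower and the list's medians were -1.19 in NW and -1.004 in ABX on the log2 scale, while all 3592 genes had medians of 0.05 and -0.03. Each of the 5 had under 50 UMIs in the ST2+ Foxp3- cells of ABX and reached the minimum there only through the Foxp3+ cells. That leaves the list's count and medians without weight. Ikzf2 was at 110.9 CPM in ST2+ Foxp3- cells and 1026 in Foxp3+ cells of NW (log2 ratio -3.21, -3.51 to -2.92), and at 77.6 and 953 CPM in ABX (-3.62). Ctla4 was at 84.8 and 603 CPM in NW (-2.83) and at 68.6 and 259.7 in ABX (-1.92). Other lower genes were Frmd5 (-3.58 and -3.70), the gene of the basement membrane laminin subunit Lamc1, the adhesion gene Icam1 and Tnfrsf1b, the gene of TNF receptor 2.

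Of 10 type 2 regulator genes 1 was higher and none lower, and of 11 alarmin and cytokine receptor genes none passed 2-fold in both libraries, counts that are near the share over all genes. The higher gene is Bhlhe40, a transcription factor gene of cytokine-producing T cells, named after its values were seen. Of 6 ILC2 and neuropeptide genes 2 were higher and 1 lower, with medians of 0.04 and 0.21. Gata3 was at 700.0 CPM in ST2+ Foxp3- cells and 858 in Foxp3+ cells of NW, and at 532 and 489 in ABX.

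Among the genes higher than in Foxp3+ cells, the cell polarity gene Pard3 stood out in NW. It was at 284.6 CPM in ST2+ Foxp3- cells and 11.3 in Foxp3+ cells (log2 ratio 4.65, 3.85 to 5.58), and in ABX at 131.7 and 14.3 (3.20). Rnf128, the gene of the ubiquitin ligase GRAIL, was at 222.9 and 36.7 CPM in NW (2.60) and at 294.1 and 23.8 in ABX (3.62). Csf1, the macrophage growth factor gene, was at 155.9 and 48.9 CPM in NW and at 140.7 and 30.98 in ABX. Also named by the rule were the amino acid transporter gene Slc7a8, the neuropeptide co-receptor gene Ramp3, the phosphodiesterase gene Pde7a, Fam213a, Hs3st3b1, Myo6 and the T cell signalling gene Themis. In ILC2-type cells Pard3 was at 335.6 and 414.9 CPM and Rnf128 at 814.7 and 979.5, while Themis was at 3.64 and 7.95 CPM.

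**Figure D3:**
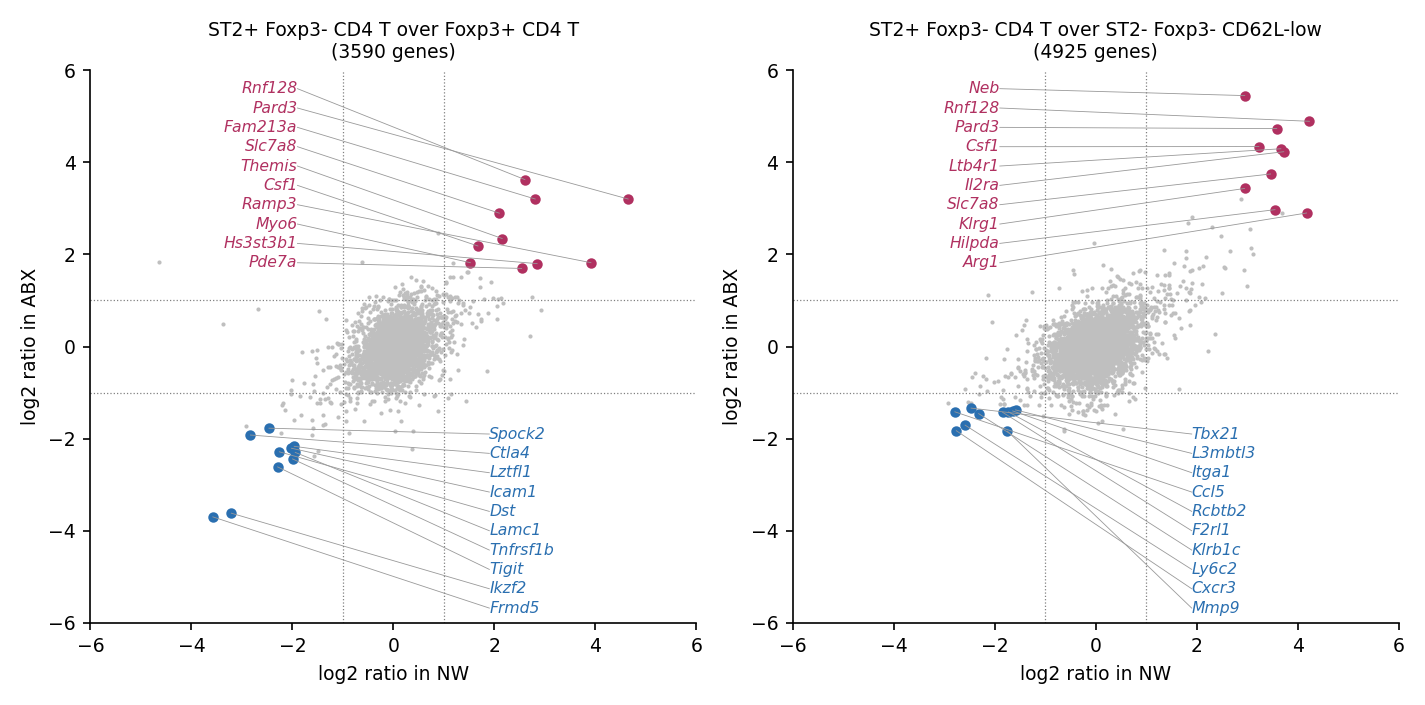
Log2 ratio of the level in ST2+ Foxp3- CD4 T cells over Foxp3+ CD4 T cells (left) and over ST2- Foxp3- CD62L-low CD4 T cells (right), NW on the x axis and ABX on the y axis, 1 grey point per gene with Il1rl1 and Foxp3 left out. Red and blue points are the 10 genes named in each direction, and the dotted lines mark 2-fold. Pard3 and Rnf128 lie at the upper right of both panels, Ikzf2 and Frmd5 at the lower left of the first, and Cxcr3 and Ccl5 at the lower left of the second.

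Against CD62L-low cells without ST2 (240 in NW and 237 in ABX), the ST2+ Foxp3- cells were higher in Gata3. Other genes of fat Treg cells and of ILC2 were higher too. Of these, Klrg1, Dgat1, Arg1 and Slc7a8 had under 50 UMIs in the CD62L-low cells of each library. The ST2+ Foxp3- cells were lower in the T helper 1 gene Ccl5. They were also lower in Cxcr3 and Tbx21, which had under 50 UMIs in the ST2+ Foxp3- cells of ABX. Of 4926 genes, 68 (1.38%) were higher, among them Il1rl1 as the rule requires, and 29 (0.589%) were lower. The list of visceral fat Treg genes had 6 of 10 higher and none lower, and Il1rl1, whose difference the rule fixed, is 1 of the 6. Without Il1rl1, 5 of 9 were higher, with medians of 1.75 in NW and 1.19 in ABX. All genes had medians of -0.0022 and -0.0052. The 5 are Gata3, Klrg1, the signalling gene Rgs2, the triglyceride synthesis gene Dgat1 and the phospholipid synthesis gene Pcyt1a, the last named after its values were seen. Gata3 was at 700.0 and 207.7 CPM in NW (log2 ratio 1.75) and at 532 and 159.5 in ABX (1.74). Il2ra was at 689.5 and 52.2 CPM in NW (3.72, 3.28 to 4.20) and at 539.5 and 28.7 in ABX (4.23). Of 7 ILC2 and neuropeptide genes 4 were higher, namely the arginase gene Arg1, Klrg1, Ramp1 and Slc7a8. Of 7 lipid handling genes 3 were higher, namely the lipid droplet genes Plin2 and Hilpda and Dgat1. Hilpda was at 652.9 and 55.8 CPM in NW (3.55) and at 326.6 and 41.6 in ABX (2.97). Of 11 Treg genes 4 were higher and none lower, namely Il2ra, the co-stimulatory receptor genes Tnfrsf18 and Tnfrsf4 and the actin-binding gene Capg. Klrg1, Arg1, Slc7a8, Hilpda, Il2ra, Dgat1 and Tnfrsf4 were among the genes with under 50 UMIs in the CD62L-low cells of each library. They reached the minimum of 50 only with the UMIs of the ST2+ Foxp3- cells, so these list counts and medians carry no weight. The leukotriene receptor gene Ltb4r1 was at 346.3 and 27.3 CPM in NW and at 175.0 and 8.92 in ABX. It had only 23 UMIs in the CD62L-low cells of NW and 9 in those of ABX.

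The T helper 1 and cytotoxic list had 4 of 7 genes lower and none higher, with medians of -2.47 and -1.22. Only Ccl5 of this list had at least 50 UMIs in the ST2+ Foxp3- cells alone in each library. The others reached the minimum through the CD62L-low cells, which leaves the count and medians without weight. Cxcr3, a chemokine receptor gene of these cells, was at 53.4 CPM in ST2+ Foxp3- and 362.0 in CD62L-low cells of NW (-2.76, -3.22 to -2.33), and at 74.0 and 262.6 in ABX (-1.83). Ccl5 was at 343.2 and 2374 CPM in NW (-2.79) and at 492.6 and 1316 in ABX (-1.42). Tbx21, the gene of the T helper 1 factor T-bet, was at 17.8 and 98.5 CPM in NW and at 27.1 and 68.4 in ABX. The surface protein gene Ly6c2, the NK1.1 gene Klrb1c and the integrin gene Itga1 were lower too, with log2 ratios between -2.59 and -1.65 in NW. With at least 2 Il1rl1 UMIs asked for, 62 genes rather than 29 were lower than in CD62L-low cells.

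**Figure D4:**
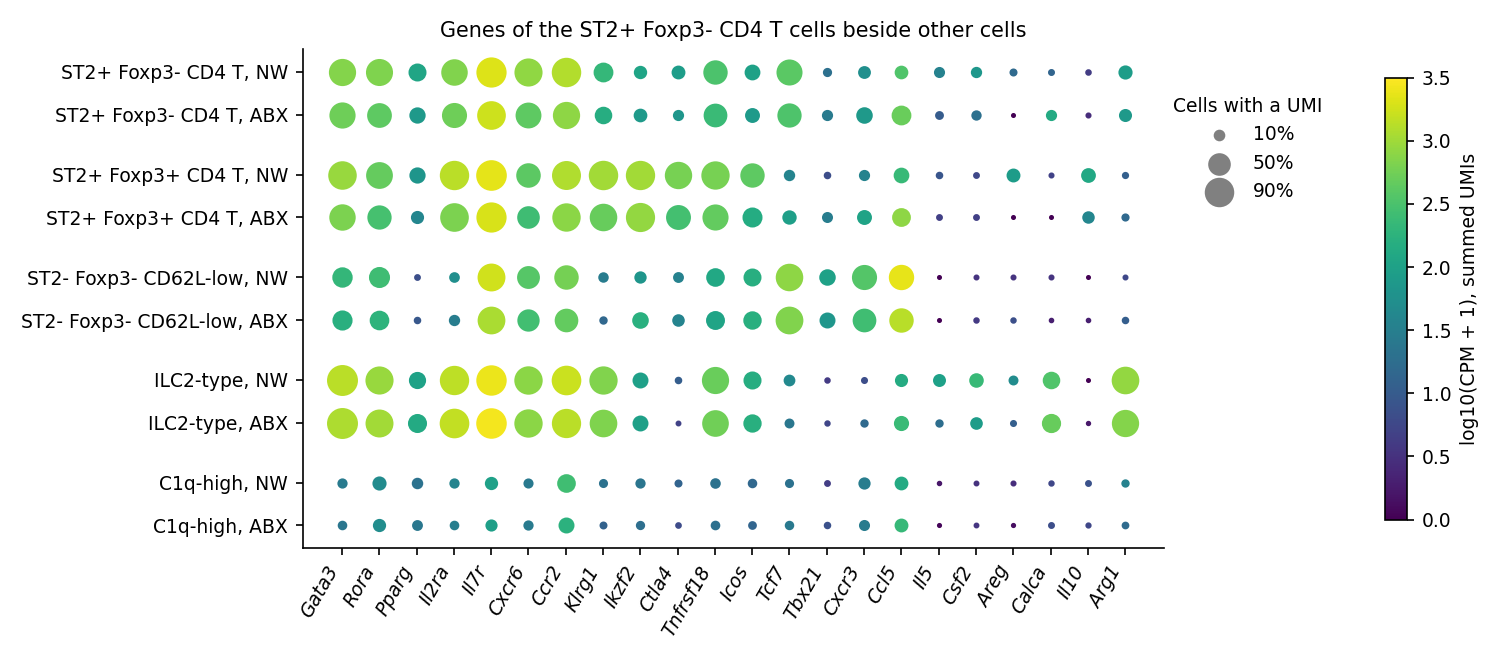
Levels of 22 genes in ST2+ Foxp3- CD4 T cells and 4 other cell groups of NW and ABX, with dot size for the share of cells with a UMI (%) and colour for log10(CPM + 1) of the summed UMIs. C1q-high cells are shown as cells of another type. Gata3, Rora and Il2ra are shared with ST2+ Foxp3+ and ILC2-type cells, Ikzf2 and Ctla4 are high in ST2+ Foxp3+ cells, and Cxcr3 and Ccl5 in CD62L-low cells.

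ILC2-type cells (466 in NW and 828 in ABX) were chosen by Il1rl1 and Gata3 mRNA without Cd3e mRNA, CD4 or TCR-beta antibody. Against them, the ST2+ Foxp3- cells were lower in the 5 listed ILC2 genes that had at least 50 UMIs of their own in each library. T cell genes were higher, but those given with values below had few UMIs in the ILC2-type cells. Of 7081 genes, 133 (1.88%) were higher and 182 (2.57%) lower, and the Cd3 genes, which the rule used and of which Cd3e is absent from ILC2-type cells by choice, are among the 133. Of 16 ILC2 and neuropeptide genes with enough UMIs 12 were lower, but many of the 16 reached the minimum only through the ILC2-type cells, which leaves that count without weight. Of the 5 that had at least 50 UMIs in the ST2+ Foxp3- cells alone in each library, 5 were lower, with medians of -1.70 and -1.63, where those of all genes were -0.03 and -0.08. Arg1 was at 85.8 CPM in ST2+ Foxp3- and 845 in ILC2-type cells of NW (-3.30), and at 74.0 and 709 in ABX (-3.26). The lipoxygenase gene Alox5 was at 36.6 and 511 CPM in NW, and the interleukin-25 receptor gene Il17rb at 2.09 and 51.4. Hes1, a Notch target gene, was at 17.8 and 263.9 CPM in NW and at 5.41 and 139.2 in ABX. In the ST2+ Foxp3- cells of NW and ABX, Alox5 had 35 and 23 UMIs, Il17rb 2 and 3 and Hes1 17 and 3. In the other direction, Cd5 (6.96 and 6.85), Cd28 (4.54 and 4.41) and Tnfrsf4 (3.58 and 3.80) were higher on the log2 scale, as were Cd4, Cd2, Trat1 and Slamf6. In the ILC2-type cells Cd5 had 3 and 4 UMIs, Cd28 32 and 28 and Tnfrsf4 15 and 18. Each of these genes thus reached the minimum only through the group where it was high, and carries no weight for the contrast. The CD4 antibody was used to choose both groups. Gata3 and Il1rl1 were higher in ILC2-type cells, at 1364 and 2369 CPM in NW, but both were used to choose those cells.

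Type 2 cytokine mRNA was sparse in the ST2+ Foxp3- cells and was read with that limit. Il5, the eosinophil growth factor gene on chromosome 11 (53720794 to 53725106, plus strand), had 33 UMIs in 19 of 216 cells in NW and 5 UMIs in 5 of 111 cells in ABX. These are 34.5 and 9.02 CPM, a log2 ratio of -1.94 (-3.65 to -0.57). Csf2, the GM-CSF gene on the same chromosome (54247271 to 54249667, minus strand), had 68 UMIs in 20 cells in NW, 24 of them in 1 cell, and 10 UMIs in 8 cells in ABX. Its levels were 71.1 and 18.0 CPM, a log2 ratio of -1.98 (-3.10 to -1.01). By share of cells the difference was smaller than by UMIs, since Il5 was found in 8.80% and 4.50% of cells and Csf2 in 9.26% and 7.21%. In C1q-high cells Il5 was found in 0.330% and 0.0690% and Csf2 in 0.729% and 0.690%, with up to 27 and 29 UMIs of Csf2 in 1 cell. At least 1 of Il5 and Csf2 was found in 37 cells in NW (17.1%, 12.4 to 22.8) and 13 in ABX (11.7%, 6.39 to 19.2), while 2 cells and none had both. Of these cells, 35 of 37 and 13 of 13 had at least 2 Il1rl1 UMIs, and 33 and 12 had Gata3.

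The other ST2+ groups differed in these genes. Il5, Il13 and Csf2 together were at 106.7 CPM in ST2+ Foxp3- cells of NW and 27.1 in ABX, with 1 and 0 UMIs of Il13. In ST2+ Foxp3+ cells they were at 12.5 and 7.16 CPM, in CD62L-low cells at 2.37 and 2.97, and in C1q-high cells at 2.87 and 2.61. ILC2-type cells were highest, at 363.7 CPM in NW and 99.7 in ABX, so that the sum was lower in ABX in both ST2+ Foxp3- and ILC2-type cells. In ST2+ Foxp3- cells of NW, 24 of the 102 UMIs of the sum were in 1 cell. By share of cells, 17.6% and 11.7% of ST2+ Foxp3- cells had a UMI of these genes. Areg, the amphiregulin gene, named like Il13 and Il4 after its values were seen, had 14 UMIs in 7 ST2+ Foxp3- cells of NW and 0 of 111 cells in ABX, which allows a share of up to 2.70% and a level of up to 5.41 CPM there. In ILC2-type cells Areg was at 47.3 and 10.3 CPM. Calca, the gene of the neuropeptide CGRP on chromosome 7 (114631478 to 114636357, minus strand), went the other way. It had 12 UMIs in 4 cells in NW and 74 UMIs in 10 cells in ABX, 27 of them in 1 cell, or 12.6 and 134 CPM (3.41, 2.52 to 4.43). In ILC2-type cells Calca was at 342 and 490 CPM. Over all 12 listed cytokine genes, the ST2+ Foxp3- cells had 177.9 CPM in NW and 205.7 in ABX (0.21, -0.15 to 0.56). The sign of that difference depended on the setting, since it was 0.65 with at least 2 Il1rl1 UMIs and -0.36 without cells that had Ikzf2. Calca is 1 of the 12 genes and gave 12 of the 170 UMIs of the sum in NW and 74 of the 114 in ABX. The total therefore does not describe the other cytokine genes, and a sum without Calca was not computed. Interleukin-4 mRNA (Il4) was found in 4 cells of each library.

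Within the ST2+ Foxp3- cells, most measured genes of the visceral fat Treg, lipid handling and residency lists were lower in ABX than in NW, and immunoglobulin genes were higher. Of the 5063 genes whose UMIs in the NW and ABX cells summed to at least 50, 68 (1.34%) were at least 2-fold higher in ABX and 105 (2.07%) at least 2-fold lower, and the median log2 ratio was -0.06. The interval lay wholly below 0 for 11.1% of these genes and wholly above 0 for 6.87%, against which the counts of intervals in the gene lists are to be read. Of 12 visceral fat Treg genes, 3 were at least 2-fold lower and none higher. Without Il1rl1, which chose the cells, the median of the other 11 was -0.598 and 9 intervals lay wholly below 0. The 3 are Fgl2, Dgat1 and Cxcl2. Fgl2, a secreted fibrinogen-like protein gene of Treg cells, was at 765.9 CPM in NW and 295.9 in ABX (-1.37, -1.63 to -1.13), found in 70.4% and 48.6% of cells. Dgat1 was at 269.9 and 83.0 CPM (-1.70, -2.19 to -1.24), and the neutrophil chemokine gene Cxcl2 at 98.4 and 14.4 (-2.77, -4.02 to -1.73). In ILC2-type cells the log2 ratios of Fgl2, Dgat1 and Cxcl2 were -0.11, 0.20 and -0.04, and in Foxp3+ cells -0.60, -1.11 and -3.56. With at least 2 Il1rl1 UMIs asked for, the same list again had 3 of 12 genes lower, with a median of -0.47.

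Lipid handling and tissue residency genes were mostly lower in ABX. Of 8 lipid handling genes, 1 (Dgat1) was at least 2-fold lower and 1 (Fabp5, named after its values were seen) at least 2-fold higher, with 7 intervals below 0 and a median of -0.73. Fabp5 rested on 28 and 41 UMIs, 32 of the latter in 1 cell. Hilpda was at 652.9 and 326.6 CPM (-0.9994, -1.25 to -0.76) and Plin2 at 333 and 170 (-0.97, -1.32 to -0.64). Of 18 tissue residency and migration genes, 13 intervals were below 0, 2 genes were at least 2-fold lower and none was higher, with a median of -0.49. Those 2 are Rgs1 (-1.15) and the chemokine receptor gene Ccr4 (91.0 and 30.7 CPM, -1.57), the former named after its values were seen. Cxcr6, a chemokine receptor gene of resident T cells, was at 818 and 426 CPM (-0.94, -1.16 to -0.73), and Ccr2 at 1255 and 796 (-0.66).

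Of 11 type 2 regulator genes, 5 intervals lay below 0 and 1 above, and none of the 5 genes below was past 2-fold. Gata3 was at 700.0 and 532 CPM (-0.40, -0.60 to -0.20), and Rora, a transcription factor gene shared with ILC2, at 664 and 422 (-0.65, -0.88 to -0.44). Pparg was found in 29.6% (23.6 to 36.2) and 23.4% (15.9 to 32.4) of cells, against 9.66% and 8.29% of C1q-high cells. Among cells with at least 2 Il1rl1 UMIs, Gata3 was found in 80.1% in NW and 82.2% in ABX. Pparg was found in 32.8% and 32.9% of them, and Rora in 80.1% and 75.3%. The list's median was -0.40, and Batf (1.20, named after its values were seen) was at least 2-fold higher. No gene of 11 alarmin and cytokine receptor genes (Il1rl1 left out) and of 9 Treg genes passed 2-fold, with medians of -0.27 and -0.35. For the cells with at least 2 Il1rl1 UMIs, the medians of the regulators and of the receptors, Il1rl1 included, were -0.24 and 0.01. The co-stimulation and checkpoint list had 1 of 12 genes higher and 1 lower (-0.32), with Cd28 at 386 and 197 CPM (-0.97) and the checkpoint gene Pdcd1 at 143 and 65.0 (-1.14).

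Of 6 T helper 1 and cytotoxic genes 3 were at least 2-fold higher and none lower, with a median of 0.79. The 3 are the granule gene Nkg7 (49.2 and 106.5 CPM, 1.11, 0.54 to 1.70) and the chemokine genes Ccl3 and Ccl4, Ccl3 being named after its values were seen. Ccl4 (26.2 and 75.8 CPM) was found in 8.33% of cells in NW and in 6.31% in ABX, where 7 cells held its 42 UMIs. Ccl5 was found in 15.3% and 36.9% of cells and Cxcr3 in 13.0% and 24.3%. By level the log2 ratio of Cxcr3 was 0.47, with an interval that held 0 (-0.16 to 1.09). Among cells with at least 2 Il1rl1 UMIs, Ccl5 was found in 12.9% in NW and 27.4% in ABX. Cxcr3 was found in 8.60% and 10.96% of them, and in 40% and 50% of the cells with 1 Il1rl1 UMI. Where at least 2 Il1rl1 UMIs were asked for, only 1 gene of the list had enough UMIs, and Nkg7 was at 0.74 (-0.19 to 1.64). Among cells with under 50 immunoglobulin UMIs, 1 of 5 genes of the list was at least 2-fold higher. The median was then 0.55 and Nkg7 was at 0.94. Other named higher genes were Satb1, a chromatin organiser (68.0 and 157.0 CPM, 1.21), Tmem176b (212.4 and 483.6, 1.19), Lyst (109.9 and 236.4, 1.11) and Birc2 (1.13). Ly6c2 (1.15) and Dusp2 (1.14) were at 0.22 and 0.32 with at least 2 Il1rl1 UMIs, and both intervals then held 0. The remaining named lower genes were Dkk3 (117.2 and 25.3 CPM, -2.21), the stress gene Gadd45b (-1.62), Phlda1 (-1.56), the lipid amidase gene Naaa (-1.502, with 33 of 171 NW UMIs in 1 cell), the circadian factor gene Hlf (-1.42) and Crem (-1.42).

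**Figure D5:**
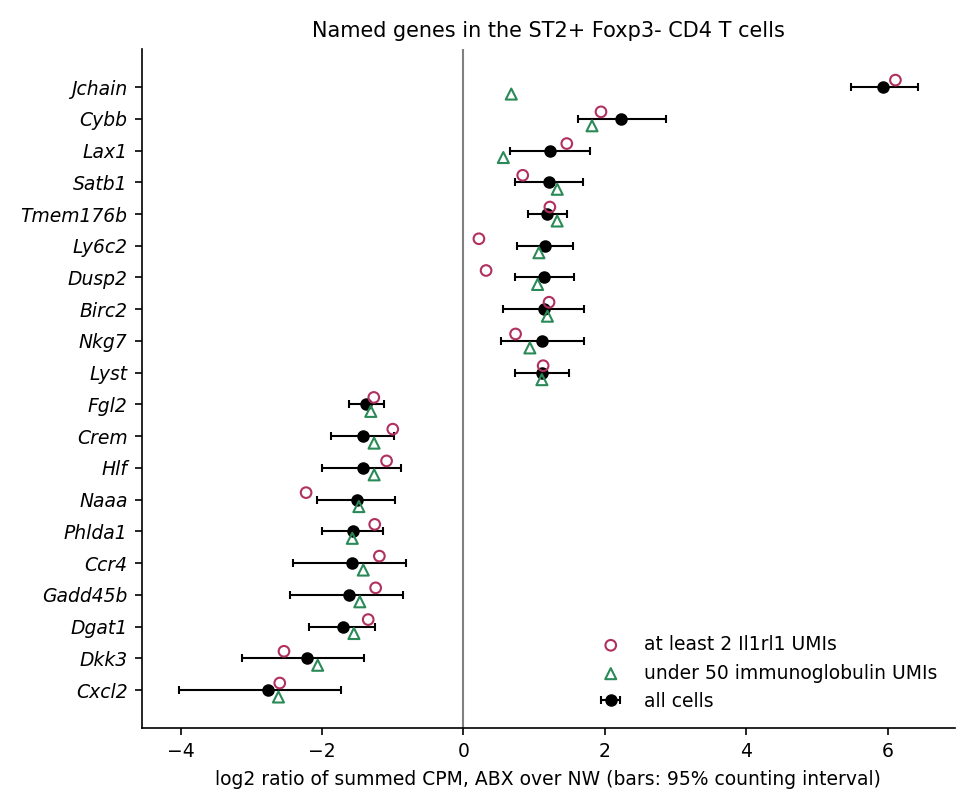
Log2 ratio of the level in ABX over NW for the 20 genes named in the ST2+ Foxp3- CD4 T cells, with 95% counting intervals (black), and the same ratio among cells with at least 2 Il1rl1 UMIs (red circles) and among cells with under 50 immunoglobulin UMIs (green triangles). Jchain goes from 5.93 to 0.68 without the immunoglobulin-rich cells, and Ly6c2 and Dusp2 from 1.15 and 1.14 to 0.22 and 0.32 with at least 2 Il1rl1 UMIs.

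Immediate early and stress genes had 0 of 18 past 2-fold and a median of -0.07. Proliferation genes had 1 of 8 higher and 1 lower (0.13), and Mki67, a gene of dividing cells, was found in 13.9% of cells in NW and 12.6% in ABX. Naive and recirculating genes had 1 of 9 higher (Satb1) and 1 lower (Igfbp4, 0.16 for the median, named after its values were seen), and Tcf7, a factor gene of naive and memory T cells, was at 404 and 334 CPM. Interferon-stimulated genes had 0 of 4 past 2-fold (0.20), and ILC2 and neuropeptide genes 1 of 10 higher, Slc7a8 (0.02). Of the T helper 17 list only Tmem176a and Tmem176b had enough UMIs, and both were higher in ABX, at log2 ratios of 0.79 and 1.19, with intervals above 0. Of 3 T follicular helper genes, Pdcd1 was lower.

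Genes of other cell types differed between the libraries in these cells. All 5 measured B and plasma cell genes were at least 2-fold higher in ABX, with a median of 4.06, and the list summed to 1340 CPM in NW and 22829 in ABX. Jchain, which joins secreted antibodies, was at 41.9 and 2555 CPM (5.93, 5.48 to 6.42). Of 12684 immunoglobulin and Jchain UMIs in the ABX cells, 11763 (92.7%) were in 5 cells, and the most in 1 cell was 4239. In NW the total was 1352, with 1 cell at 108 and no other at 50 or more. Without cells of at least 50 such UMIs, Jchain was at a log2 ratio of 0.68 (-0.07 to 1.42) and the adaptor gene Lax1 went from 1.22 to 0.56 (-0.10 to 1.21). Cybb, an oxidase gene of phagocytes and B cells, was at 32.4 and 151.6 CPM in ST2+ Foxp3- cells (2.22) and at 592.2 and 690.6 in C1q-high cells, and was at 1.82 without the immunoglobulin-rich cells. Macrophage and dendritic cell genes had 1 of 15 higher and 1 lower and a median of -0.27. Lyz2, a macrophage gene, was at 438 and 265 CPM and was found in 70.8% and 56.8% of the cells. Of the genes of NK, NKT, gamma-delta and CD8 T cells 0 of 2 and of endothelial and stromal cells 0 of 1 passed 2-fold, and no mast cell or granulocyte gene had enough UMIs.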

How the data were processed

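CD45+ VAT cells of NW and ABX mice were profiled with mRNA and AbSeq antibodies, 1 library per condition. The authors deposited UMI counts per barcode, gene and antibody, made with the BD Rhapsody WTA Analysis Pipeline 1.8 on GRCm38, after its own correction of UMIs and with no normalization. The submitters' processing notes name Seurat 3.0.1 and R 3.6.0, which were not needed for the counts. The files hold 17662 and 17785 barcodes and 10 antibodies, 8 of which the methods list.

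Cells with at least 500 UMIs, at least 200 genes and at most 25% mitochondrial UMIs were kept (12474 in NW and 12724 in ABX, 75214427 and 60770758 UMIs). No doublet caller was run. Genes present in a single file were set to 0 for the library without them. Members, lists and comparisons were chosen with earlier results of these data known. UMIs were summed over cells per library and given as CPM. Shares carry exact Clopper-Pearson intervals, ratios of levels exact intervals of a ratio of Poisson rates, and ratios of shares a normal interval on the log scale, all at 95% and covering counting error only. A count of 0 was given the limit of 3 counts. With 1 library per group no test was made. Up to 5 genes of each list, by UMI total (at least 20), were named, and by fold the 10 highest and 10 lowest of each comparison. For ABX over NW this asked for at least 100 UMIs and an interval that leaves out 0, and between groups for 2-fold in both libraries. Mitochondrial, ribosomal, unnamed, receptor-segment and rule genes were not named by fold. A gene named outside these routes is marked as such. Thinning used the hypergeometric expectation at 1000 UMIs. Positions are from GENCODE M21, in which 332 of 335 genes sought were matched by symbol. The scripts were tested on simulated data. Python 3.11.15, numpy 2.4.6, pandas 2.3.3, scipy 1.17.1 and matplotlib 3.10.9 were used. Alternatives were stricter gates, cells and gene limits, thinning, a mean over cells, and leaving out cells with Ikzf2 or with at least 50 immunoglobulin UMIs. For the shares alone, the C1q and Cdh5 limits were dropped, or cells with UMIs of another lineage or above the 99th percentile of UMIs were left out.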

Additional observations from a re-analysis of the deposited data

How the results depend on the processing

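No paired analysis was possible because each condition is 1 library. With at least 2 Il1rl1 UMIs asked for, the log2 ratio of ABX over NW was -1.38 for the share of all cells, -0.91 for the share of CD4 T cells and 0.65 for the type 2 cytokine sum, and 62 genes were lower than in CD62L-low cells. With each cell thinned to 1000 UMIs the shares of all cells and of CD4 T cells gave -1.41 and -0.96. The share of Foxp3- cells among ST2+ CD4 T cells was then 62.1% in NW and 74.0% in ABX (0.25, 0.05 to 0.45). Without cells that had Ikzf2 the cytokine sum gave -0.36, and both of these sums include Calca. With at least 20 CD4 and 30 TCR-beta antibody UMIs, 18 genes were lower than in Foxp3+ cells. Leaving out cells with at least 2 UMIs of B cell, macrophage, gamma-delta or CD8 T cell genes, or above the 99th percentile of UMIs, removed many members. Of 216 cells in NW 112 were left, and of 111 in ABX 65. The log2 ratios were then -0.81 for the share of all cells and -0.64 for the share of CD4 T cells. Gene levels were not recomputed for the cells left.

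Counts of genes past 2-fold depended on the UMI minimum. At 20 in place of 50 UMIs they were 251 higher and 371 lower for ABX over NW, 83 and 84 against Foxp3+ cells, 133 and 69 against CD62L-low cells, and 247 and 301 against ILC2-type cells. At 100 UMIs they were 16 and 37, 15 and 17, 39 and 14, and 63 higher and 124 lower against ILC2-type cells. The alternatives made from the members rich in immunoglobulin, and ST2+ Foxp3+ in place of all Foxp3+ cells, were chosen after seeing the data. Among the shares, the cytokine sum and the genes named by fold, no value whose interval leaves out 0 took the opposite sign under these alternatives. Levels of other genes, such as Il5, Csf2 and Gata3, were not part of that check. Over the genes named by fold and the alternatives, 825 values lay within the interval of the reported value and 48 did not. A gene at 0 UMIs in the ABX cells can still be at up to 5.41 CPM at this depth.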
